A study of Mus musculus with 12 samples.

Results

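A set of 10 p53 pathway genes, out of the 16288 genes listed in the deposited tables, was followed through myoblast differentiation with and without the bromodomain ligand PFI-3. They were chosen by name: Trp53, which encodes p53 itself, and 9 genes known as direct p53 targets, namely Mdm2, Ccng1, Bax, Bbc3, Pmaip1, Zmat3, Btg2, Plk2 and Phlda3. All 10 were among the 12545 genes with enough counts to be tested. The cells were C2C12, an immortalized mouse myoblast line that divides in serum-rich medium and fuses into myotubes when serum is withdrawn. PFI-3 binds the bromodomains of the SWI/SNF chromatin-remodelling ATPases BRG1 and BRM and of PBRM1.

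RNA was sequenced in 12 libraries that form 6 groups of 2, lettered A and B. Proliferating cells (GM) were kept in growth medium with 10% fetal bovine serum and received DMSO, the vehicle, or 50 uM PFI-3 for 12 h. Differentiating cells had the same 12 h of DMSO or 50 uM PFI-3 and were then moved to medium with 2% horse serum and 2 ug/ml insulin. They were harvested 24 h or 48 h later (labelled DM 24h and DM 48h), with the compound renewed every 24 h. All groups were the same line with no genetic change named in the labels. The series describes the duplicates as biological, and p-values measure the spread between these duplicates of 1 line. Expected counts, which are estimated read counts per gene, summed to between 12576374 and 13658352 per library. The GM duplicates lay further apart than the others: the SD over genes of the log2 ratio between letters A and B was 0.312 and 0.281 in the GM groups and between 0.131 and 0.14 in the DM groups. The labelled cell type was checked on marker lists. All 5 myoblast markers were present in every group, and the summed level of 7 myotube markers in DMSO cells went from 6.35 to 11.8 CPM (counts scaled to a common library size) in GM to 17551 to 17590 CPM at 48 h. Adipocyte markers summed to at most 0.0818 CPM, endothelial markers to at most 1.8 CPM and blood cell markers to at most 9.55 CPM. Osteoblast markers summed to between 58.6 and 155 CPM, nearly all of it from Runx2, a transcription factor gene that reached 1980 counts, while Ibsp was at 0 in every library and Bglap, Sp7 and Alpl reached at most 3.28, 5 and 8 counts.

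The transcription factor p53 is kept low in unstressed cells by MDM2, a ubiquitin ligase that marks it for degradation and whose own gene p53 activates. After DNA damage or other stress p53 accumulates and binds response elements made of adjoining decamers, turning on genes for cell-cycle arrest, cell death, DNA repair and feedback. In muscle the arrest gene Cdkn1a also rises during normal differentiation, when the factor MyoD can induce it without p53. An mRNA level of Trp53 does not measure p53 activity, since the protein is controlled mainly by its stability.

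To show the regulatory DNA of these genes, the 250 bases before an annotated transcript start were searched for the p53 decamer on both strands. At most 1 mismatch to the consensus was allowed. A decamer with a mismatch at the C or G of the consensus core was not counted. Windows came from the RefSeq promoter table (GRCm38.p6) and were used for 8 of the 10 genes; none was used for Zmat3 and Pmaip1. Of 32851 such windows of all genes, 7.13% held a perfect decamer and 44.7% held one with at most 1 mismatch, outside the core. A pair of these separated by 0 to 13 bases was held by 2.2%. A perfect decamer was found in the windows of Trp53, Mdm2, Ccng1 and Bax. A pair of counted decamers was found in that of Ccng1 alone among the 8. In Bax, aagcatatcc, with 1 mismatch at the core G, lies just before the perfect decamer. It was not counted and is left in lower case below, as is gagcttcctc in Ccng1. Bbc3 and Btg2 had decamers with 1 mismatch, and the windows of Plk2 and Phlda3 held no match. A match describes the letters of the window only. Many p53 elements lie in introns or further upstream, outside it. The windows of 5 genes with distinct results are printed 5′ to 3′ on the gene's strand, with decamer matches in capitals: the feedback genes Mdm2 and Ccng1, the death genes Bax and Bbc3, and Btg2.
Mdm2, chr10:117710759-117711008, minus strand: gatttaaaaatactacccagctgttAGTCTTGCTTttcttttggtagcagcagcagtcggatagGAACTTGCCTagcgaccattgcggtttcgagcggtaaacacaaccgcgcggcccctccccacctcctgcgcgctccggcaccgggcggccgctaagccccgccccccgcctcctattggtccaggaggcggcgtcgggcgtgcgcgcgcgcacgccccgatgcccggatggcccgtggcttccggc
Ccng1, chr11:40755287-40755536, minus strand: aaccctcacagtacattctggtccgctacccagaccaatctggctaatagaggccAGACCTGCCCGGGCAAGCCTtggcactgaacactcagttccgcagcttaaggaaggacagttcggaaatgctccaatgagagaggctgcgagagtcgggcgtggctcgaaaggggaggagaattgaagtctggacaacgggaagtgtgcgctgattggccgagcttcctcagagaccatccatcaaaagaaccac
Bax, chr7:45466899-45467148, minus strand: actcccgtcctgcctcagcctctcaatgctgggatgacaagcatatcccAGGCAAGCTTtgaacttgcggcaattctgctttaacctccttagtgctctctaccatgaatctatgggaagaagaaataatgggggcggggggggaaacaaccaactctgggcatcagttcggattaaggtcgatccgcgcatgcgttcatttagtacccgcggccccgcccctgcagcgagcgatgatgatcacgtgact
Bbc3, chr7:16309333-16309582, plus strand: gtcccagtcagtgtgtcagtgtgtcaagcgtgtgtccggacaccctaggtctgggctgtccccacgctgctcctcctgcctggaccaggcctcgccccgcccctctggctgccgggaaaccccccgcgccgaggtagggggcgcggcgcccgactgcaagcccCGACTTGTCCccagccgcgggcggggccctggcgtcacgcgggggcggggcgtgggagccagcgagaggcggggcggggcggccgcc
Btg2, chr1:134079156-134079405, minus strand: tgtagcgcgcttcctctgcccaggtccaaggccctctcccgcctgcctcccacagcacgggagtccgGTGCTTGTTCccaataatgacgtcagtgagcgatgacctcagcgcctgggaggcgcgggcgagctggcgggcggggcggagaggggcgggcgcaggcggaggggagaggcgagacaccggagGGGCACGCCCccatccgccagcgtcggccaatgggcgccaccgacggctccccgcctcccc
Counted from the base next to the start, the perfect decamer of Mdm2 spans bases 186 to 177 (GAACTTGCCT) and that of Bax bases 201 to 192 (AGGCAAGCTT). In Ccng1 the perfect decamer GGGCAAGCCT at bases 185 to 176 directly follows the 1-mismatch decamer AGACCTGCCC at bases 195 to 186. The Bbc3 match, CGACTTGTCC, lies at bases 87 to 78 of the window shown, the first of 3 listed for this gene. All 3 windows lie inside the Bbc3 gene span, whose first base is 16308398, so the window shown is not the sequence before the gene's outermost start. The windows of Ccng1 and Bax overlap the start of their gene spans by a few bases. On the minus strand these spans start at 40755309 and 45466903. The Btg2 matches lie at bases 183 to 174 and 61 to 52.

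The 10 genes spanned a wide range of levels. On the FPKM scale, which divides by transcript length and so allows genes to be compared, Trp53 had the highest mean of the 10 in each of the 6 groups. In GM cells with DMSO, Trp53 averaged 232 ± 18.3 FPKM (SD, n = 2), followed by Bax at 154, Phlda3 at 121 and Ccng1 at 98.1 FPKM. Plk2 and Mdm2 lay in the middle at 44.6 and 42.6 FPKM. Zmat3 at 11.2, Btg2 at 4.74, Bbc3 at 2.77 and Pmaip1 at 2.29 FPKM were the lowest. Duplicates of neighbouring genes in this order did not overlap, except those of Bbc3 and Pmaip1. By 48 h with DMSO, Pmaip1 had moved up to the sixth place at 30.2 FPKM, above Mdm2 at 23.6, Btg2 at 19.2, Bbc3 at 9.18 and Zmat3 at 7.38 FPKM. With PFI-3 at 48 h, Pmaip1 stayed near the bottom at 6.77 FPKM, above Bbc3 alone at 5.74 FPKM. No neighbours overlapped in either 48 h group.

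**Figure D1:**
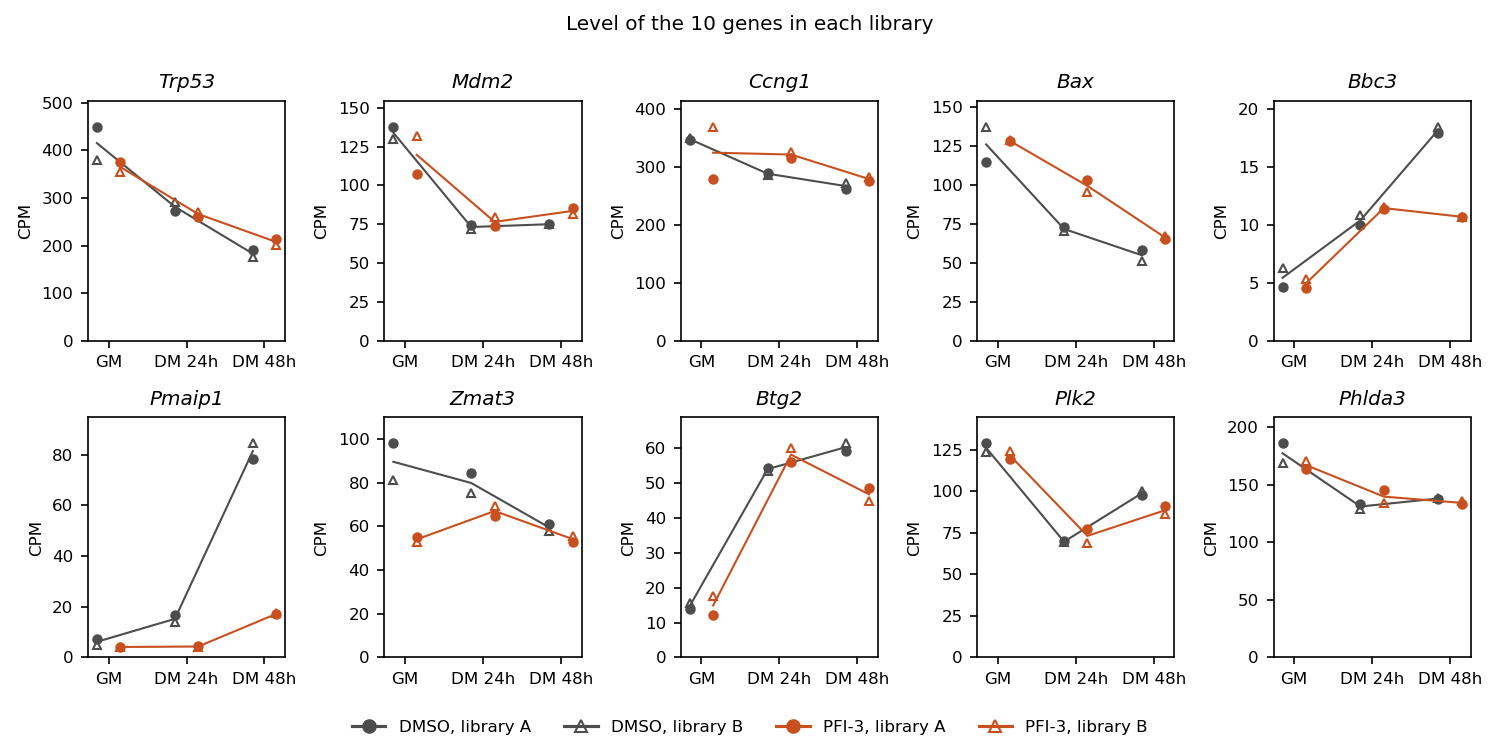
Level of each of the 10 genes in CPM (linear axis from 0, own scale per gene) in the 12 libraries by stage. Circles are libraries A, triangles libraries B, grey DMSO, orange PFI-3, and lines join the means of the duplicates. Pmaip1 reached 78.2 and 84.5 CPM at 48 h with DMSO and 17.0 and 17.3 CPM with PFI-3.

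The first comparison followed DMSO cells through differentiation. Pmaip1, Bbc3 and Btg2 rose, while Trp53, Mdm2, Bax, Ccng1, Plk2 and Phlda3 fell from GM to 24 h. From GM to 24 h, 9 of the 10 passed the test, where 60.6% of all genes tested did: 3 were higher (30.6% of all genes) and 6 lower (30.0%). From GM to 48 h all 10 passed, against 73.1% of all genes: 3 were higher (37.2%) and 7 lower (35.9%). From 24 h to 48 h, 6 passed, against 48.1%: 3 were higher (24.2%) and 3 lower (23.9%). Their median log2 change was -0.35, -0.37 and 0.06 in these comparisons, beside 0.02, 0.03 and 0.00 over all genes. The comparisons share groups, so the GM and 24 h libraries each enter more than 1 of them. Calls were made with edgeR's quasi-likelihood test at a Benjamini-Hochberg adjusted p under 0.05, and this test is meant wherever an adjusted p is given.

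Trp53 (NCBI Gene 22059, chr11:69580348-69591873, plus strand, GRCm38.p6) fell at each step. Its CPM in libraries A and B was 449 and 381 in GM, 273 and 291 at 24 h, and 190.1 and 176 at 48 h. The stages did not overlap. From GM to 48 h the log2 change was -1.18 (SE 0.08, adjusted p = 8.21e-08), a 2.27-fold decrease.

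Mdm2 (17246, chr10:117688875-117710758), the ubiquitin ligase gene, fell early. It was at 138 and 130.1 CPM in GM, 74.3 and 72.3 CPM at 24 h and 75.2 and 74.9 CPM at 48 h. The fall to 24 h had a log2 change of -0.87 (SE 0.09, adjusted p = 5.82e-06), and the step from 24 h to 48 h one of 0.04 (95% interval -0.17 to 0.24, adjusted p = 0.785). Ccng1 (12450, chr11:40748552-40755309) encodes cyclin G1, which brings the phosphatase PP2A to MDM2. It was at 346 and 351 CPM in GM, 290.4 and 287 CPM at 24 h and 263 and 272 CPM at 48 h. The log2 change from GM to 48 h was -0.38 (SE 0.10, adjusted p = 0.00408). Its smaller fall from GM to 24 h, at -0.27 (adjusted p = 0.0325), passed in 6 of 13 alternative analyses.

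The death effectors moved in opposite directions. Bax (12028, chr7:45461695-45466903), which forms pores in the outer mitochondrial membrane, was at 115 and 137 CPM in GM, 73.1 and 70.4 CPM at 24 h and 58.5 and 51.3 CPM at 48 h. From GM to 48 h it fell 2.3-fold (log2 change -1.20, SE 0.09, adjusted p = 1.85e-07). Without library B of 48 h with DMSO, its step from 24 h to 48 h, -0.39 with an adjusted p of 0.00523, no longer passed (-0.29, adjusted p = 0.0689). Bax shares 192 of its exonic bases, 12.2% of them, with the overlapping gene model Gm45808 on the same strand. A read there could come from either, and Gm45808 is not among the genes listed in the deposited tables. Bbc3 (170770, chr7:16308398-16318334) encodes PUMA, a BH3-only protein that activates the BAX pathway. It went from 4.62 and 6.27 CPM in GM to 9.99 and 10.8 CPM at 24 h and 18.0 and 18.5 CPM at 48 h. The rise over both steps was 3.33-fold (log2 change 1.74, SE 0.15, adjusted p = 5.29e-07), with no overlap between stages. Pmaip1 (58801) encodes NOXA, a BH3-only protein that binds the survival factor MCL1. It rose most of the 10, from 7.45 and 4.87 CPM (95 and 66 counts) in GM to 16.6 and 13.9 CPM at 24 h and 78.2 and 84.5 CPM (962 and 1033 counts) at 48 h. The rise to 24 h was 2.48-fold (log2 change 1.31, SE 0.17, adjusted p = 3.28e-05), and the rise from 24 h to 48 h 5.35-fold (2.42, SE 0.14, adjusted p = 3.52e-08). From GM to 48 h the increase was 13.2-fold (3.73, SE 0.15, adjusted p = 5.31e-10). Cycling-cell markers moved along this course too. From GM to 24 h, 4 of the 6 were called lower and Mki67 higher, with a median log2 change of -0.41. Of all genes, 30.0% were lower and 30.6% higher at this step. From 24 h to 48 h all 6 were lower, where 23.9% of all genes were, with a median of -1.73. With DMSO the 6 genes summed to 1989 to 2017 CPM in GM, 1945 to 1973 CPM at 24 h and 603 to 605 CPM at 48 h. Their part in these changes was not tested.

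Among the growth-control genes, Btg2 (12227, chr1:134074865-134079155) rose early. BTG2 is an antiproliferative protein that recruits the CCR4-NOT deadenylase. It was at 13.8 and 15.7 CPM in GM, 54.5 and 53.6 CPM at 24 h and 59.2 and 61.5 CPM at 48 h. The first step was a 3.66-fold rise (log2 change 1.87, SE 0.14, adjusted p = 2.63e-07), and the next step, at 0.16, did not pass (adjusted p = 0.302). Plk2 (20620, chr13:110395044-110400844), a polo-like kinase gene that responds to serum, fell and then partly returned. It was at 129 and 124 CPM in GM, 70.1 and 69.4 CPM at 24 h and 98 and 100 CPM at 48 h. Its log2 change was -0.86 (SE 0.07, adjusted p = 9.72e-07) to 24 h and 0.51 (SE 0.07, adjusted p = 0.000121) from there to 48 h. Phlda3 (27280, chr1:135766085-135769134), an inhibitor of AKT at the membrane, went from 186 and 169 CPM in GM to 133 and 129 CPM at 24 h and 138 in both libraries at 48 h. Its fall to 24 h had a log2 change of -0.44 (SE 0.07, adjusted p = 0.000162). Zmat3 (22401, chr3:32334792-32365665), a zinc-finger gene whose product binds RNA, fell late. It was at 98.1 and 81.1 CPM in GM, 84.3 and 75.5 CPM at 24 h and 61.0 and 58.1 CPM at 48 h. The change from GM to 48 h was -0.59 (SE 0.09, adjusted p = 0.000118), and that from GM to 24 h, at -0.17, did not pass (adjusted p = 0.143).

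**Figure D2:**
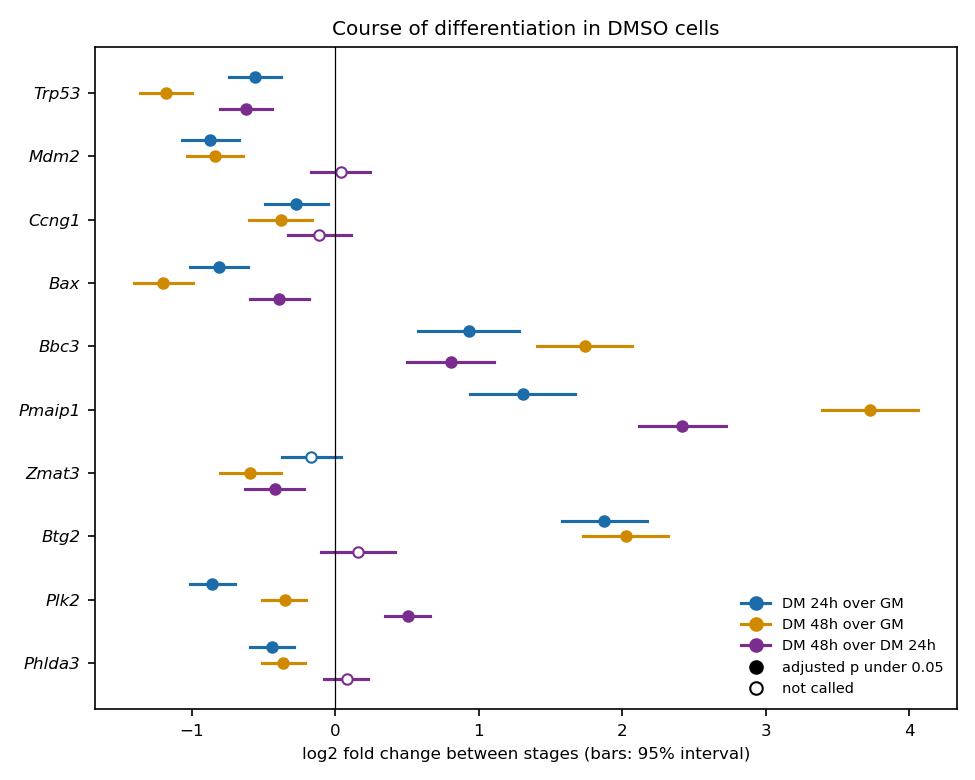
Log2 fold change between stages in DMSO cells (x axis) for each of the 10 genes, with 95% intervals as bars. Filled points have an adjusted p under 0.05, and Pmaip1, Bbc3 and Btg2 are the 3 genes to the right of 0 for 48 h over GM, at 3.73, 1.74 and 2.03.

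The next comparison set PFI-3 against DMSO within each stage. PFI-3 lowered Pmaip1 at 24 h and 48 h, Bbc3 and Btg2 at 48 h, and Zmat3 in GM, and raised Bax at 24 h. Trp53, Mdm2, Ccng1, Plk2 and Phlda3 did not pass the test at any stage. In GM 1 of the 10 passed, against 11.6% of all genes tested, and it was lower (5.46% of all genes were higher and 6.15% lower). At 24 h 2 passed, against 23.6%: 1 was higher (12.2% of all genes) and 1 lower (11.4%). At 48 h 3 passed, against 27.4%, and all 3 were lower (13.4% of all genes were higher and 14.0% lower). In either direction these shares are near those of all genes. The DMSO libraries also enter the course of differentiation above, so the 2 sets of values are not independent. The median log2 change of the 10 was -0.12 in GM, 0.08 at 24 h and -0.09 at 48 h, beside -0.01, 0.00 and 0.00 over all genes. In a fit of only the 4 libraries compared, 0 passed in GM, 4 at 24 h and 7 at 48 h, and the share of all genes called was 0.303%, 44.7% and 45.0%. The 4 at 24 h were Bax and Ccng1, higher, and Pmaip1 and Zmat3, lower. The 7 at 48 h were Bax, Mdm2 and Trp53, higher, and Bbc3, Btg2, Plk2 and Pmaip1, lower. Limma on log2(FPKM + 1) also gave both directions at 48 h, with Bax and Trp53 higher and Bbc3 and Pmaip1 lower (31.2% of all genes called), so that the called genes were not all lower in every analysis. The GM count was 3 without library B of GM with DMSO (Trp53, Pmaip1 and Zmat3, with 21.9% of all genes called) or without library B of GM with PFI-3 (Mdm2, Ccng1 and Zmat3, with 11.6%), all lower.

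Pmaip1 carried the largest difference. At 24 h it was at 16.6 and 13.9 CPM with DMSO and 4.57 and 4.04 CPM with PFI-3. The PFI-3 libraries at 24 h lay below both GM libraries with DMSO, which were at 7.45 and 4.87 CPM. The log2 fold change at 24 h was -1.82 (SE 0.18, 95% interval -2.21 to -1.43, adjusted p = 2.59e-05), a 3.53-fold lower level. At 48 h it was at 78.2 and 84.5 CPM with DMSO and 17.0 and 17.3 CPM with PFI-3, so the treated cells at this stage were near the 24 h level of the vehicle cells. The log2 fold change was -2.24 (SE 0.13, 95% interval -2.54 to -1.95, adjusted p = 7.49e-07), a 4.74-fold lower level. Both calls passed in 13 of 13 alternative analyses. In GM the 2 groups were at 7.45 and 4.87 CPM with DMSO and 4.22 and 3.99 CPM with PFI-3, and the difference of -0.58 did not pass (adjusted p = 0.0845).

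The response of Pmaip1 differed between stages when the difference itself was tested. The PFI-3 effect was lower at 48 h than in GM by 1.67 on the log2 scale (-1.67, SE 0.25, adjusted p = 0.00091), in 17 of 17 alternative analyses. At 24 h against GM the difference was -1.24 (SE 0.27, adjusted p = 0.0314), and it passed in 11 of 17. Between 48 h and 24 h it was -0.43 (adjusted p = 0.271). Such stage differences passed for 1 of the 10 genes at 24 h against GM (3.37% of all genes, 1.78% higher and 1.59% lower), 2 at 48 h against GM (14.5%, 8.24% higher and 6.28% lower) and 1 at 48 h against 24 h (12.1%, 7.12% higher and 4.97% lower). The count at 24 h against GM was 0 without either library of 24 h with PFI-3, either library of 24 h with DMSO or library A of GM with PFI-3, and 2 without the other GM libraries one at a time. The count at 48 h against GM was 4 without library A or B of GM with PFI-3 or library B of GM with DMSO, and 1 without library B of either 48 h group. With a library left out, the share of all genes that passed ran from 0.709% to 7.99% at 24 h against GM and from 8.13% to 23.4% at 48 h against GM.

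Muscle differentiation markers moved in the same direction as Pmaip1. The 7 myotube markers, among them Myog, Myh3 and Ckm, all passed as lower with PFI-3 at 24 h and at 48 h. Their summed level was 2210 to 2219 CPM with DMSO and 903 to 917 CPM with PFI-3 at 24 h, and 17551 to 17590 against 11414 to 11634 CPM at 48 h. Their part in the results for Pmaip1, and for Bbc3, Btg2 and Cdkn1a given next, was not tested. In bulk RNA, fewer cells that express a gene and less RNA per cell cannot be told apart.

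Bbc3, the other BH3-only gene of the set, differed at 48 h. It was at 18.0 and 18.5 CPM with DMSO and 10.7 CPM in both libraries with PFI-3, against 9.99 and 10.8 CPM with DMSO and 11.4 and 11.5 CPM with PFI-3 at 24 h. The level of the treated cells at 48 h lay below their own level at 24 h, a step that was not tested. At 48 h the log2 fold change was -0.77 (SE 0.14, 95% interval -1.07 to -0.46, adjusted p = 0.00162), a 1.7-fold lower level, and it passed in 13 of 13 alternatives. At 24 h it was 0.14 (adjusted p = 0.533) and in GM -0.14 (adjusted p = 0.64). The effect at 48 h differed from that at 24 h by -0.90 (SE 0.20, adjusted p = 0.0124). That difference passed in 10 of 17 alternatives, and in the others its adjusted p reached at most 0.0638. These losses came without any 1 of 6 of the 8 DM libraries, all but library A of 48 h with DMSO and library B of 24 h with DMSO, and with the DESeq2 test.

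Bax went the other way at 24 h. It was at 73.1 and 70.4 CPM with DMSO and 103 and 95.7 CPM with PFI-3, without overlap. The log2 fold change was 0.47 (SE 0.09, 95% interval 0.27 to 0.67, adjusted p = 0.00359), a 1.38-fold higher level in 13 of 13 alternatives. At 48 h it was at 58.5 and 51.3 CPM against 65.3 and 67.1 CPM, and the difference of 0.27 did not pass (adjusted p = 0.0545), although it did in 4 of 13 alternatives. In GM the libraries overlapped (0.03, adjusted p = 0.88). At 24 h Bax with PFI-3 lay between its GM and 24 h levels with DMSO.

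Zmat3 was the only one of the 10 that passed in GM. It was at 98.1 and 81.1 CPM with DMSO and 55.3 and 52.9 CPM with PFI-3. The log2 fold change was -0.73 (SE 0.09, 95% interval -0.94 to -0.52, adjusted p = 0.000737), a 1.66-fold lower level. It passed in 12 of 13 alternatives and was lost with only the 4 GM libraries in the fit, where the adjusted p was 0.13. The difference was smaller at the later stages: 84.3 and 75.5 against 64.9 and 69.3 CPM at 24 h (-0.25, adjusted p = 0.0729) and 61.0 and 58.1 against 53 and 55.5 CPM at 48 h (-0.13, adjusted p = 0.341). The PFI-3 level thus stayed within 52.9 to 69.3 CPM throughout, while the DMSO level fell from 98.1 and 81.1 CPM to 61.0 and 58.1 CPM. The effect at 48 h differed from that in GM by 0.59 (SE 0.14, adjusted p = 0.0125). This difference no longer passed without library B of 48 h with DMSO (0.56, adjusted p = 0.0649) or with PFI-3 (0.56, adjusted p = 0.0584).

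Btg2 was lower with PFI-3 at 48 h by a small margin. It was at 59.2 and 61.5 CPM with DMSO and 48.6 and 45 CPM with PFI-3. The log2 fold change was -0.37 (SE 0.12, 95% interval -0.63 to -0.10, adjusted p = 0.0418), and it passed in 6 of 13 alternatives. It was lost without any 1 of the 4 48 h libraries, by the DESeq2 test and by limma on FPKM at either pseudocount (0.1 or 1), with an adjusted p of up to 0.221. At 24 h, where Btg2 had already risen, the levels were 54.5 and 53.6 CPM with DMSO and 56.2 and 60.3 CPM with PFI-3 (0.11, 95% interval -0.15 to 0.37, adjusted p = 0.564). In GM the groups overlapped (0.01, adjusted p = 0.971).

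For Trp53 and its feedback genes no difference between PFI-3 and DMSO passed in the fit of all libraries. Trp53 was at 449 and 381 CPM with DMSO and 376 and 354 CPM with PFI-3 in GM, a difference of -0.19 (adjusted p = 0.168). At 24 h it was at 261 and 271 CPM with PFI-3 (-0.08, 95% interval -0.26 to 0.10, adjusted p = 0.524), and at 48 h at 214 and 202 CPM (0.18, adjusted p = 0.136). None passed, although the groups did not overlap at any stage. Mdm2 with PFI-3 was at 108 and 132 CPM in GM, 73.7 and 79.5 CPM at 24 h and 85.7 and 81.6 CPM at 48 h. Its 95% intervals ran from -0.35 to 0.03 in GM, -0.14 to 0.26 at 24 h and -0.05 to 0.36 at 48 h. Ccng1, the gene with the counted decamer pair, was at 280.2 and 369.9 CPM in GM, 317 and 327 CPM at 24 h and 277 and 283 CPM at 48 h with PFI-3. Its intervals were -0.32 to 0.12, -0.06 to 0.37 and -0.15 to 0.28. Some of these differences did pass in alternative analyses. Trp53 at 48 h was called higher in 4 of 13 (adjusted p down to 0.000145), Mdm2 at 48 h in 2 of 13 (down to 0.0161) and Ccng1 at 24 h in 2 of 13 (down to 0.000229). In GM each of the 3 genes passed in 1 of 13, as lower.

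Plk2 and Phlda3 also did not pass at any stage. Plk2 with PFI-3 was at 120 and 124 CPM in GM, 77.7 and 68.8 CPM at 24 h and 91.1 and 86.4 CPM at 48 h. The log2 differences were -0.05, 0.07 and -0.16 (adjusted p = 0.685, 0.531 and 0.13), and the last of these passed in 2 of 13 alternatives. Phlda3, whose duplicates lay close, was at 164 and 171 CPM in GM, 145 and 134 CPM at 24 h and 133 and 136 CPM at 48 h with PFI-3. Its 95% intervals were -0.23 to 0.06, -0.06 to 0.24 and -0.19 to 0.11.

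**Figure D3:**
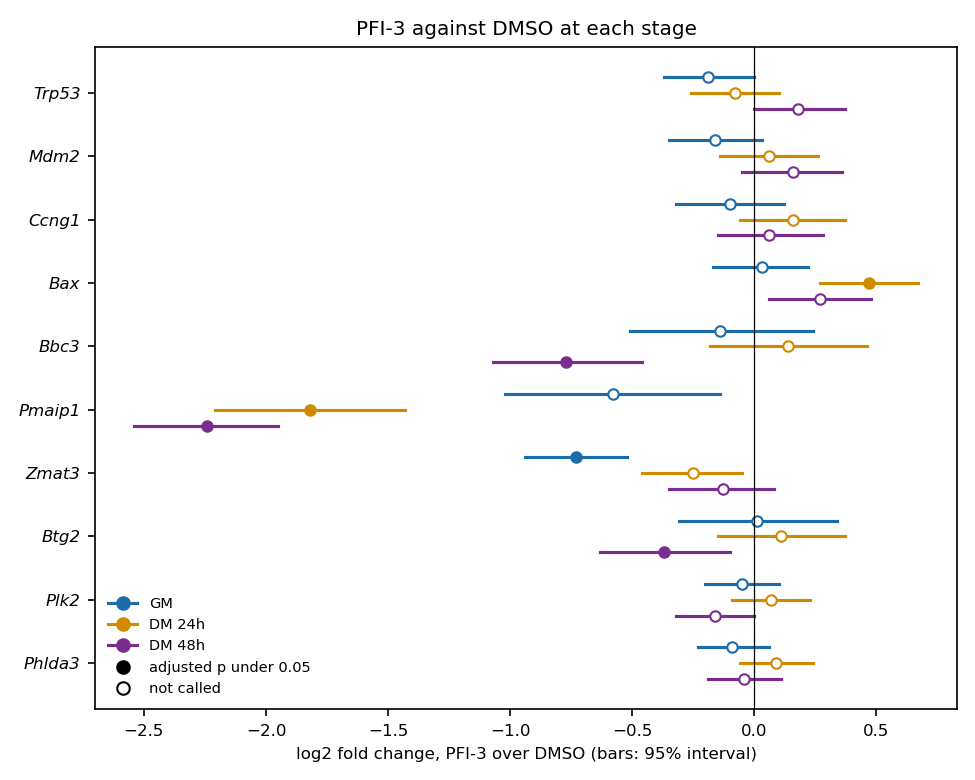
Log2 fold change of PFI-3 over DMSO (x axis) for the 10 genes at GM, 24 h and 48 h, with 95% intervals as bars. Filled points have an adjusted p under 0.05: Zmat3 in GM, Bax and Pmaip1 at 24 h, and Bbc3, Pmaip1 and Btg2 at 48 h.

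Some of the 10 followed each other across the 12 libraries. The correlation of log2 levels was 0.94 for Mdm2 with Phlda3, 0.93 for Bbc3 with Btg2 and 0.89 for Trp53 with Bax. It was -0.92 for Trp53 with Bbc3 and -0.94 for Mdm2 with Btg2. These describe 12 libraries that share stages and treatments. Of the 10367 genes tested that averaged 5 CPM or more, those most like Trp53 were Actb (r = 0.995), Basp1 (0.994) and Adss (0.993). Most like Mdm2 were Dnaja1 (0.988), Ier5l (0.982) and Lats2 (0.980), and most like Ccng1 were Myf5 (0.927), Stk24 (0.923) and Mrpl4 (0.919).

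Other genes of the pathway were taken from lists fixed by function. Cdkn1a encodes p21, the cyclin-dependent kinase inhibitor through which p53 arrests the cell cycle. In DMSO cells it went from 190 and 170 CPM in GM to 723 and 781 CPM at 24 h and 2031 and 2027 CPM at 48 h. From GM to 48 h this was an 11.3-fold rise (log2 change 3.50, SE 0.12, adjusted p = 1.17e-10). Like Pmaip1, it was lower with PFI-3 in differentiating cells, at 465 and 480 CPM at 24 h and 1429 and 1370 CPM at 48 h. The log2 fold changes were -0.67 (adjusted p = 0.00115) and -0.54 (adjusted p = 0.00313). Mdm4, the partner of MDM2 in restraining p53, rose in DMSO cells by 0.86 from GM to 48 h (adjusted p = 0.000524). It did not pass for PFI-3 at any stage (0.25, 0.08 and 0.14, adjusted p = 0.356, 0.763 and 0.568).

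Of 19 tested regulators and partners of p53, Mdm4 included, 1 was lower with PFI-3 in GM, 1 higher and 1 lower at 24 h, and 3 higher and 2 lower at 48 h, where 11.6%, 23.6% and 27.4% of all genes tested passed at these stages. Their median log2 change was -0.02, -0.07 and 0.06. Ppp1r13l, which encodes the p53 inhibitor iASPP, was lower at all 3 stages. It was at 47.0 and 42.2 CPM with DMSO against 26.2 and 27.3 CPM with PFI-3 in GM, and at 65.0 and 58.8 against 32.8 and 29.9 CPM at 48 h. The log2 fold changes were -0.74 in GM, -0.69 at 24 h and -0.98 at 48 h (adjusted p = 0.00103, 0.000777 and 2.24e-05). Its GM call passed in 12 of 13 alternatives and was lost with only the GM libraries in the fit (adjusted p = 0.124). Trp63, a p53 relative, appeared late and was at 17.2 and 14.6 CPM with DMSO and 4.93 and 4.92 CPM with PFI-3 at 48 h (-1.69, SE 0.22, adjusted p = 0.000136). The checkpoint kinase gene Chek1 was at 3.66 and 4.25 CPM with DMSO and 13 and 13.7 CPM with PFI-3 at 48 h (1.75, SE 0.14, adjusted p = 4.43e-06). Chek2 was higher there by 0.79 (adjusted p = 0.00586) and Trp53bp2 at 24 h by 0.39 (adjusted p = 0.00305).

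Of 11 tested arrest and growth targets, 2 were higher and 2 lower with PFI-3 in GM, 3 higher and 3 lower at 24 h, and 4 higher and 2 lower at 48 h, with medians of 0.07, 0.04 and 0.03. The shares of all genes that passed were 11.6%, 23.6% and 27.4%. Gdf15, a stress-induced cytokine, was higher at each stage, at 15.3 and 15.6 CPM against 25.7 and 20.1 CPM in GM and 5.55 and 5.8 against 11 and 9.84 CPM at 24 h. Its log2 fold changes were 0.57, 0.87 and 0.78 in GM, 24 h and 48 h (adjusted p = 0.0194, 0.00242 and 0.00545). Sesn2, a stress-induced regulator of mTORC1, was likewise higher, by 0.47, 0.58 and 0.69 (adjusted p = 0.0147, 0.00271 and 0.000925). Gadd45a was higher at 24 h by 0.62 (adjusted p = 0.0199), a call made in 8 of 13 alternatives. The mitotic genes Psrc1 and Gtse1 were lower in GM, at -1.18 and -0.45 (adjusted p = 6.04e-05 and 0.00617). Psrc1 was also lower at 24 h, at -0.60 (adjusted p = 0.00193), and did not pass at 48 h (0.09, adjusted p = 0.614). Gtse1 was higher at 48 h by 1.37 (adjusted p = 1.7e-06). In the fit of the GM libraries alone, the GM calls of Gdf15, Sesn2, Psrc1 and Gtse1 did not pass, while over the 13 alternatives they passed in 9, 11, 12 and 12. Cycling-cell markers moved in the same direction as Gtse1 and Chek1 at 48 h: all 6 were higher with PFI-3 there and summed to 1134 to 1138 CPM against 603 to 605 CPM with DMSO. Their part in these differences was not tested.

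Of 12 cell death targets, 0 passed for PFI-3 in GM by edgeR, where 2 had an unadjusted p under 0.05, DESeq2 called 0 and limma on log2(FPKM + 1) 1. At 24 h 3 were higher (1 by DESeq2), and at 48 h 3 were higher and 1 lower, with medians of 0.03, 0.21 and 0.06 over the stages. Of all genes, 11.6% passed in GM, 12.2% were higher at 24 h, and 13.4% were higher and 14.0% lower at 48 h. Pidd1, which assembles a caspase-2 complex, was higher at 48 h, at 10.6 and 9.84 CPM against 4.23 and 3.27 CPM with DMSO (1.44, SE 0.18, adjusted p = 9.41e-05). The death receptor gene Tnfrsf10b was higher by 0.35 at 24 h and 0.47 at 48 h (adjusted p = 0.0336 and 0.00606). Apaf1, the apoptosome scaffold, was higher by 0.36 at 48 h (adjusted p = 0.00526), and the receptor gene Eda2r was lower at -0.42 (adjusted p = 0.00469). Of 14 repair and metabolism targets, 1 was higher in GM, 3 at 24 h and 6 at 48 h, where 5.46%, 12.2% and 13.4% of all genes were, with medians of -0.01, 0.18 and 0.26. By edgeR 0 were lower at any stage, where 6.15%, 11.4% and 14.0% of all genes were. At an unadjusted p under 0.05, 1, 0 and 2 of these targets were lower. DESeq2 called 0 higher in GM and at 24 h, and 3 higher and 1 lower at 48 h. Ephx1, an epoxide hydrolase, was at 214 and 209 CPM with PFI-3 and 94.4 and 89.8 CPM with DMSO at 48 h (1.20, SE 0.20, adjusted p = 0.001). Polh, a translesion polymerase, was higher there by 0.55 (adjusted p = 0.000393), Ercc5 by 0.49 (adjusted p = 0.00348) and Tigar by 0.60 (adjusted p = 0.0158).

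**Figure D4:**
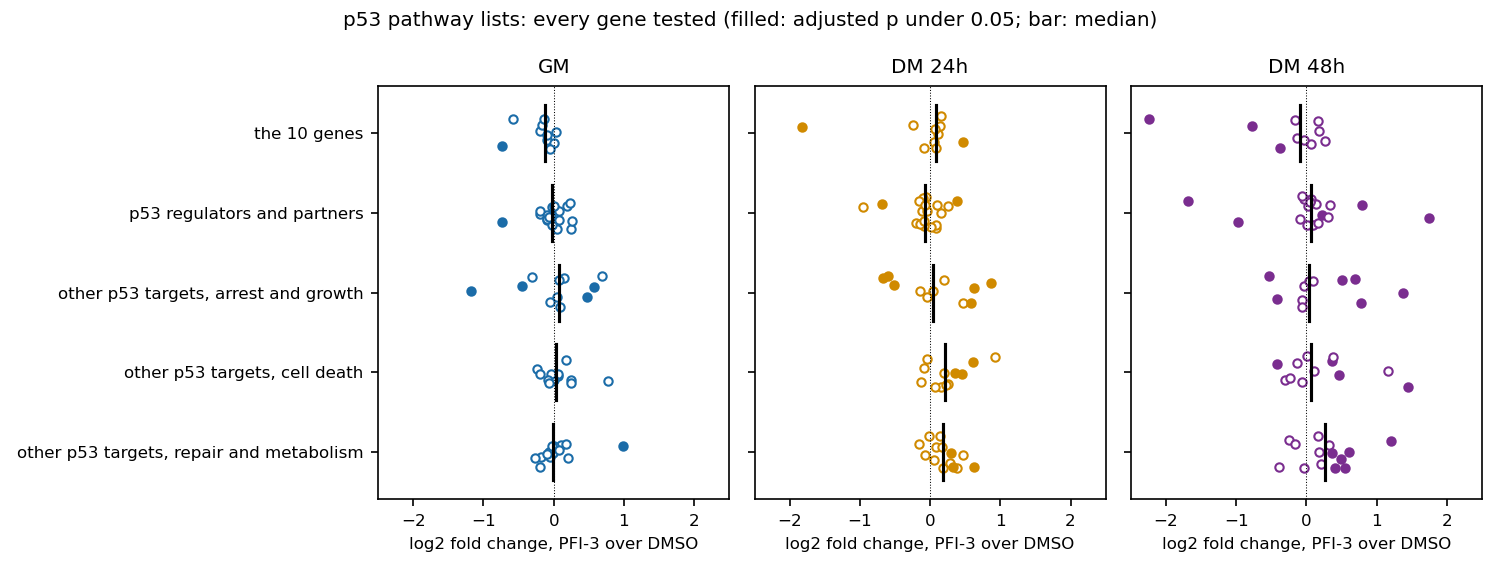
Log2 fold change of PFI-3 over DMSO (x axis) at each stage for every tested gene of the 10 and of 4 further p53 lists, 1 point per gene, filled where the adjusted p is under 0.05. Vertical bars mark list medians, which lie between -0.12 and 0.26.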

How the data were processed

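One table per library was deposited, with an expected count, an FPKM value and a transcript length per gene, per the file headers. The expected counts (estimated read counts) and FPKM values (scaled to transcript length and library size) were made by the authors' sequencing provider. The submitters' processing notes name Bowtie, RSEM, HISAT, StringTie, Cufflinks, DESeq2 and mm10, with no role or version. Replicates were not pooled. Genes absent from a library's table were set to 0, a reading no header states. All entries had a gene name.

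Expected counts were rounded and fitted with edgeR 4.0.16 (R 4.3.3, glmQLFit and glmQLFTest, TMM scaling, filterByExpr) in 1 model of 6 groups over all 12 libraries. P-values were adjusted by Benjamini-Hochberg over the 12545 genes tested, and a gene was called under 0.05. CPM are counts scaled to the TMM-adjusted library size, given per library. Totals were 12576374 to 13658352 per library. Intervals are those of the fit.

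Alternatives were DESeq2 size factors, the DESeq2 1.42.0 Wald test, no filter, a mean count of at least 10, limma 3.58.1 on log2(FPKM + 1) and log2(FPKM + 0.1), a fit restricted to the groups compared, a replicate block with either sample set, and each library left out. The letters A and B are not explained in the labels and were not taken to pair libraries.

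The 10 genes and the lists were chosen with earlier results of these data known. From each further list (p53 regulators and partners; targets in arrest and growth, cell death, and repair and metabolism; BCL2 family; paralogs), up to 4 called genes per stage with the largest change were named, given a mean of at least 5 CPM and the same sign in both letters; Cdkn1a and Mdm4 were always named. Marker lists covered myoblasts, myotubes, cycling cells, adipocytes, osteoblasts, endothelium and blood cells. Likeness was Pearson's r of log2(CPM + 1). Not tested for low counts were Trp73, Hrk and Phlda2; Cdkn2a, Trp53cor1 and Zmat4 are not analysed here. Gene positions and promoter windows are RefSeq's, GRCm38.p6, and overlapping gene models were read from GENCODE vM21.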

Additional observations from a re-analysis of the deposited data

Results flagged for a closer look

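The effect of PFI-3 was compared between stages by a direct test of the difference (edgeR's quasi-likelihood test, Benjamini-Hochberg adjusted). Differences that passed are given here for the 10 genes, of which 3 had any, and for the named genes of other lists that were called higher with PFI-3 at one stage and lower at another. Cdkn1a and Mdm4 had none. Over all genes 423 passed at 24 h against GM, 1822 at 48 h against GM and 1516 at 48 h against 24 h. Pmaip1 had a lower effect at 24 h than in GM by a log2 difference of -1.24 (SE 0.27, adjusted p = 0.0314), and at 48 h than in GM by -1.67 (SE 0.25, adjusted p = 0.00091). Bbc3 had a lower effect at 48 h than at 24 h, by -0.90 (SE 0.20, adjusted p = 0.0124). Zmat3 was the reverse case, with a decrease in GM that was smaller at 48 h by 0.59 (SE 0.14, adjusted p = 0.0125).

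The mitotic gene Gtse1 was lower with PFI-3 in GM (-0.45) and higher at 48 h (1.37). The differences were 1.82 for 48 h against GM (SE 0.13, adjusted p = 1.04e-05) and 1.42 for 48 h against 24 h (SE 0.13, adjusted p = 4.25e-05). Plk4, the centriole duplication kinase and a relative of Plk2, was lower at 24 h (-0.35) and higher at 48 h (0.95). Its differences were 0.98 for 48 h against GM (SE 0.11, adjusted p = 0.000136) and 1.29 for 48 h against 24 h (SE 0.11, adjusted p = 3.41e-05). The 6 cycling-cell markers summed to 1764 to 1994 CPM with PFI-3 and 1989 to 2017 CPM with DMSO in GM, 1520 to 1574 against 1945 to 1973 CPM at 24 h, and 1134 to 1138 against 603 to 605 CPM at 48 h. Their part in the Gtse1 and Plk4 differences was not tested. Other genes of the lists passed as well, without calls in both directions: at 24 h against GM these were Trp53bp2, Slc19a2, Bcl2l11 and Bid. At 48 h against GM they were Chek1, Epha2, Psrc1, Apaf1, Pidd1, Ephx1, Polh, Slc19a2, Bid, Bok, Mcl1, Plk1 and Btg1. At 48 h against 24 h they were Chek1, Chek2, Psrc1, Ptp4a3, Pidd1, Polh, Ak1, Bcl2l11, Plk1, Btg1 and Ccng2.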

How the results depend on the processing

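No value of the 10 genes changed direction, under other settings or with a library left out, where it or the main value was called. Direction was not compared where neither was called. Of 810 values under other settings, 768 kept their side of the threshold, 9 lost a call and 33 gained one. With only the libraries compared in the fit, PFI-3 counts of the 10 were 0 in GM (Zmat3 lost), 4 at 24 h and 7 at 48 h. Of all genes, 0.303%, 44.7% and 45.0% passed there. Stage differences were 0 for 24 h against GM (0.733% of all genes) and 4 for 48 h against 24 h (33.2%). In the fit of all libraries these shares were 3.37% and 12.1%. Adding a replicate block to that fit gave 1 in GM (Zmat3 again), 4 at 24 h and 7 at 48 h (7.34%, 45.6% and 48.4% of all genes). Those stage differences were then 3 and 4 (6.35% and 34.6% of all genes). The replicate block in the fit of all libraries left every count of the 10 as it was. Libraries of the same letter deviated together in GM (r = 0.509) and hardly at 24 h (0.036) and 48 h (0.052). Limma on log2(FPKM + 1) gave 4 stage differences for 48 h against GM (17.1% of all genes) and 2 for 48 h against 24 h (13.6%). The DESeq2 Wald test gave 0 for the latter (9.54% of all genes). Leaving out 1 library, the counts ranged from 1 to 3 (PFI-3 in GM), 0 to 2 (24 h against GM), 1 to 4 (48 h against GM) and 0 to 1 (48 h against 24 h). The cause was not tested. Over all genes, PFI-3 calls in GM numbered 1456, against 38 with only those libraries in the fit and 921 with the replicate block added to it, under which Ppp1r13l, Gdf15, Sesn2, Psrc1 and Gtse1 also passed in GM; at 24 h they were 2965 against 5603, and at 48 h 3435 against 5643. The share of calls that were higher was 47.0% in GM, 51.7% at 24 h and 48.9% at 48 h, and 75.3%, 62.0% and 65.3% with limma on log2(FPKM + 1). Bbc3 and Pmaip1 had 56 to 95 counts in GM, where the duplicates lay furthest apart; the part of either in the few GM calls was not tested.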

Other observations

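The BCL2 family, in which Bax, Bbc3 and Pmaip1 act, was examined through its other members. Of 11 tested, 1 was higher with PFI-3 in GM, 4 were higher at 24 h, and 2 were higher and 3 lower at 48 h, with median log2 changes of -0.06, 0.04 and 0.08. Of all genes tested, 11.6%, 23.6% and 27.4% passed at these stages. DESeq2 called 0 higher and 1 lower at 48 h. At 24 h, where Pmaip1 was lower and Bax higher, Bcl2l11 (the BH3-only protein BIM) was at 50.8 and 52.3 CPM with PFI-3 and 27.5 and 30.0 CPM with DMSO (0.84, SE 0.09, edgeR adjusted p = 7.02e-05). Bid was higher there by 0.49 (adjusted p = 0.00244), Bad by 0.45 (adjusted p = 0.0042) and the survival gene Bcl2l1 by 0.35 (adjusted p = 0.00787). At 48 h, Mcl1, whose protein is the main partner of NOXA, was at 138 and 143 CPM with PFI-3 and 186 and 179 CPM with DMSO (-0.38, SE 0.08, adjusted p = 0.00472). Bmf, a BH3-only gene, was at 17.6 and 13.4 against 35.8 and 37.7 CPM (-1.24, SE 0.29, adjusted p = 0.00722), a call made in 9 of 13 alternatives.

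Relatives of Ccng1, Btg2, Plk2, Phlda3 and Zmat3 were followed as well. Of 10 tested, 0 passed for PFI-3 in GM by edgeR, DESeq2 or limma on log2(FPKM + 1), and 0 had an unadjusted p under 0.05. Of all genes, 11.6%, 8.59% and 11.2% passed in GM by these 3 tests. In differentiating cells 1 was higher and 2 lower at 24 h, and 2 higher and 1 lower at 48 h (23.6% and 27.4% of all genes passed), with medians of 0.01, -0.15 and -0.12. Btg1 was lower at 48 h, the stage at which Btg2 was lower, at 203 and 204 CPM with PFI-3 and 316 CPM in both DMSO libraries (-0.63, SE 0.08, adjusted p = 0.000168). Ccng2 was higher at 24 h by 0.43 (adjusted p = 0.00873), where Ccng1 differed by 0.16 (adjusted p = 0.283), and the difference between these genes was not tested. Plk1 was higher at 48 h by 1.11 (adjusted p = 6.21e-05), and Plk3 lower at 24 h, at -0.52 (adjusted p = 0.0281).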
